A study of Mus musculus with 12 samples.

Results

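The genes described here are 10 core components and direct outputs of the circadian clock, measured in mouse liver by RNA sequencing. They were chosen by name, with earlier results of these data known. *Arntl*, *Npas2*, *Clock* and *Cry1* were taken as genes whose transcripts peak at night or around its end. *Per1*, *Per2*, *Per3*, *Nr1d1*, *Dbp* and *Ciart* were taken as genes whose transcripts peak by day or at dusk. All 10 were among the 48526 genes with deposited CPM values (reads of a gene scaled to the total of its library), and 9 of the 10 were among the 11968 genes that exceeded 1 CPM in at least 6 livers and were tested. *Npas2* did not pass this filter.

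The series compared statin-treated with untreated livers in females and in males of the inbred strain C57BL/6J. The 4 groups were female chow, female statin, male chow and male statin, each with 3 livers from different mice, 12 livers in all. All mice received chow, and the statin groups received chow containing simvastatin, an inhibitor of the rate-limiting enzyme of cholesterol synthesis, at 0.1 g/kg for 4 weeks. The dose is given per body weight in the sample labels and per food weight in the study's methods. The labels give no age, and the methods describe adult mice on a cycle of equal light and dark phases. The hour at which livers were taken, the order of collection and the feeding state at that time are not given in the sources used here. No liver of known clock time was included, so levels were compared between livers and were not converted to a time of day.

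The 12 libraries held between 46066381 and 60419223 counted reads. Summed levels of 5 hepatocyte markers were between 71100 and 152000 CPM, and those of 5 lymphocyte markers between 1.81 and 6.48 CPM, so the defining markers of the labelled tissue were present in every library. Across all tested genes, 1250 differed between the sexes on chow and 751 on statin at an adjusted p of 0.05, whereas statin against chow gave 12 calls in females and 0 in males, and the sex by statin interaction gave 0 (edgeR quasi-likelihood test, Benjamini-Hochberg adjustment over 11968 genes). In bulk tissue, fewer cells of a type and less RNA per cell cannot be told apart.

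The mammalian clock is a feedback loop. BMAL1, the product of *Arntl*, pairs with CLOCK or NPAS2 and activates genes with E-box motifs, among them the *Per* and *Cry* genes, *Nr1d1*, *Dbp* and *Ciart*. PER and CRY proteins then repress that activation, REV-ERBα (the product of *Nr1d1*) represses *Arntl* through ROR response elements, and DBP acts on D-box motifs. In liver most of these transcripts have strong daily rhythms. Livers taken at opposite phases are thus expected to show opposite levels of the night-peaking and day-peaking genes. Genes within a set differ in peak time, so livers closer in phase may differ in opposite directions within a set.

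Promoter windows of 300 bases around annotated start sites (RefSeq, GRCm38.p6) were searched on both strands for the letters of these motifs. Of 32851 mouse promoter windows, 7.15% held the E-box CACGTG, 4.68% the E′-box CACGTT, 1.06% a D-box (TTATGTAA or TTACGTAA), 1.45% a ROR response element (RORE, ANTAGGTCA or ANTGGGTCA) and 1.79% the cAMP response element TGACGTCA. The clock genes had 13 windows, with none for *Per2*. The E-box was found in *Ciart*, *Cry1* and *Per1*, the E′-box in *Cry1* and *Nr1d1*, the D-box in *Per3* and the RORE in 1 of the *Arntl* windows, and the cAMP response element in none of the 13. A match describes letters only and is not a measured binding site. The 4 windows below show each motif class found, at *Arntl* (chr7:113207261-113207560, plus strand), *Cry1* (chr10:85185005-85185304, minus strand), *Ciart* (chr3:95882179-95882478, minus strand) and *Per3* (chr4:151044616-151044915, minus strand), written 5′ to 3′ with the matched letters in capitals (an E′-box on the other strand reads AACGTG).
Arntl: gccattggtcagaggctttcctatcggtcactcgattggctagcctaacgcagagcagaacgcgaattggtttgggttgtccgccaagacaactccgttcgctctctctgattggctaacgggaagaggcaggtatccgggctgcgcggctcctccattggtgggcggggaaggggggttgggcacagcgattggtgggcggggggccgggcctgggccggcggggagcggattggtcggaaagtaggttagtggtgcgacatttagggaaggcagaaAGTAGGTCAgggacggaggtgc
Cry1: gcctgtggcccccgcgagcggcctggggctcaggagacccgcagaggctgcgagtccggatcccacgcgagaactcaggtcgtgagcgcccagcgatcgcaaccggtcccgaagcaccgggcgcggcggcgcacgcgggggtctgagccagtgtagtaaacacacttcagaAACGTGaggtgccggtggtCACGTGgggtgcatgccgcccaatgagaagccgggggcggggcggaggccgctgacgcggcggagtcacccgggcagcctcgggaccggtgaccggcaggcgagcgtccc
Ciart: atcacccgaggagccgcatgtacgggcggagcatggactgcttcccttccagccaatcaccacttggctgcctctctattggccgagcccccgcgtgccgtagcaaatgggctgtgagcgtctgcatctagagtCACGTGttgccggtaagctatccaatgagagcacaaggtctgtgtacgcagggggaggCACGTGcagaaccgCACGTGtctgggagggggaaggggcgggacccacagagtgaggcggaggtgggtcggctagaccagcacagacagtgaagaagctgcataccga
Per3: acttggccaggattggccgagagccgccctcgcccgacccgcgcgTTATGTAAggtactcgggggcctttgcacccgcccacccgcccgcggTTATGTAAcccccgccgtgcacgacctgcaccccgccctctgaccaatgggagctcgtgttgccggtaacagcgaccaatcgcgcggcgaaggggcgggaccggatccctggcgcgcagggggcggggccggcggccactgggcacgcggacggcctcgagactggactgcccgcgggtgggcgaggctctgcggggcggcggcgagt
The RORE at *Arntl* lay 28 bases after this start site. The E-box of *Cry1* lay 60 bases before the start and its E′-box 79 bases before it. *Ciart* held the E-box 3 times, at 116, 58 and 44 bases before the start. *Per3* held the D-box letters at 205 and 158 bases before the start.

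Levels below are CPM scaled between libraries by the TMM method, a trimmed mean of log ratios, and gene positions are on GRCm38 (GENCODE vM21). Divided by exon length, the average over 12 livers was highest for *Dbp*, at 57.5 ± 9.84 CPM per kilobase (SD, n = 12 livers), followed by *Nr1d1* at 31.8 ± 7.71. *Per1* (7.81 ± 2.20), *Per2* (6.51 ± 1.93), *Ciart* (5.97 ± 2.20) and *Per3* (5.52 ± 1.18) followed within 1 SD of their neighbours. *Cry1* and *Clock* were at 2.46 ± 0.763 and 2.42 ± 0.352 CPM per kilobase. *Arntl*, at 0.136 ± 0.0461, and *Npas2*, at 0.0332 ± 0.0244, were the lowest of the 10. *Dbp* and *Nr1d1*, day-peaking genes of the set, were thus abundant in every liver, while *Arntl* and *Npas2* rested on few reads.

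**Figure D1:**
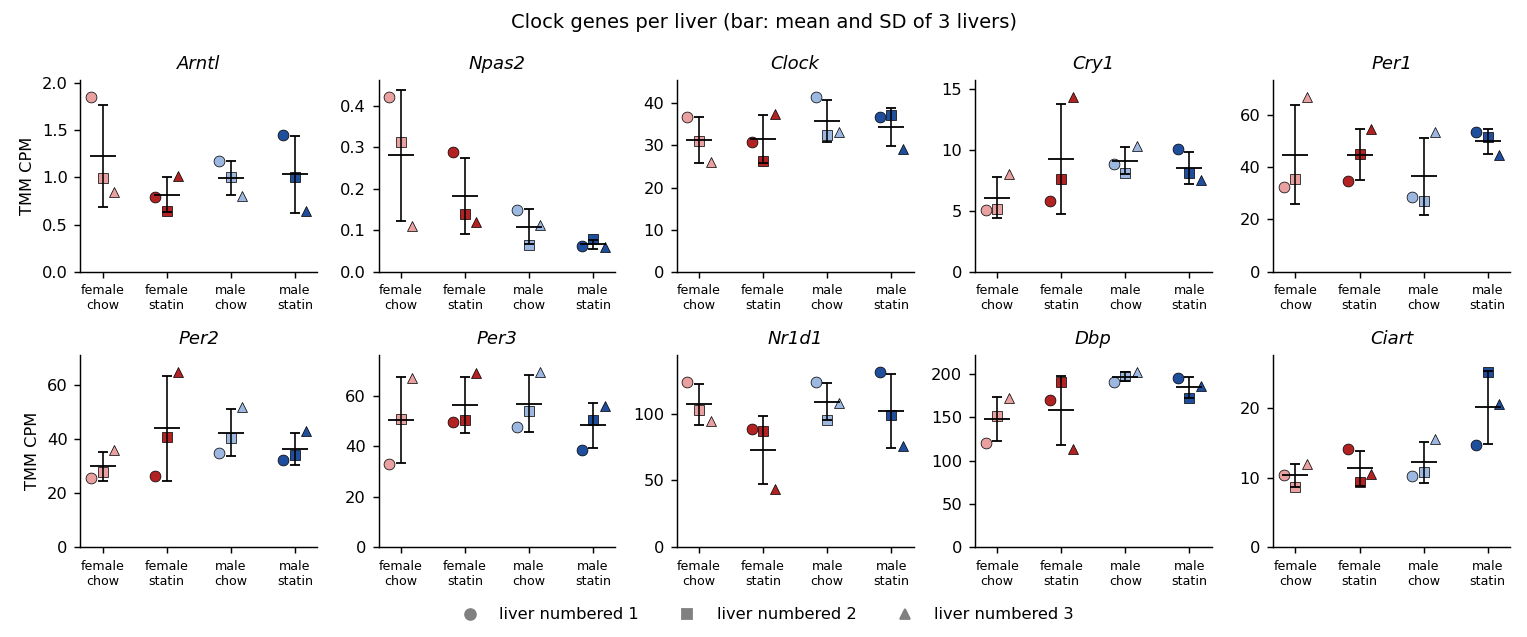
TMM-normalized CPM of the 10 clock genes in each of the 12 livers, by group (female and male, chow and statin), on linear axes from 0; symbols give the liver number in the labels and bars the mean and SD of 3 livers. Statin and chow livers of the same sex overlap for every tested gene except *Nr1d1* in females, where statin livers lie between 43.6 and 88.6 CPM and chow livers between 94.7 and 123.9 CPM.

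The first question was whether clock genes differed between statin and chow livers of the same sex, with the night-peaking and the day-peaking genes shifted in opposite directions. No clock gene passed the test in either sex. In females 0 of 9 genes were called by edgeR against 0.100% of all genes tested, and DESeq2 and limma also called 0. An unadjusted p under 0.05 was reached by 0 of the 9 with edgeR, where 1256 of all 11968 genes reached it, by *Nr1d1* alone with DESeq2 (0.0422) and limma (0.0392, both in fits across all genes), and by *Nr1d1*, *Per2* and *Cry1* without the filter on low counts. In males 0 of 9 were called by edgeR against 0% of all genes tested, 1 had an unadjusted p under 0.05 (*Ciart*), and DESeq2 and limma called 0. Among all genes tested in males, 234 had an unadjusted p under 0.05, limma called 0 and DESeq2 called 4. The interaction of sex and statin likewise gave 0 of 9 by edgeR, DESeq2 and limma, with 0 at an unadjusted p under 0.05 by these tools and 2 (*Per2* and *Ciart*) by edgeR without the filter, against 0% of all genes tested. Over all genes the interaction had 959 genes at an unadjusted p under 0.05, 0 calls by limma and 122 by DESeq2.

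*Arntl* (chr7:113207465-113314126, plus strand), which encodes the activator BMAL1, was read in only 33 to 97 reads per liver. Its levels were 1.85, 0.994 and 0.851 CPM in female chow livers and 0.789, 0.644 and 1.01 CPM in female statin livers. In males they were 1.18, 1.00 and 0.807 CPM on chow and 1.46, 1.01 and 0.642 CPM on statin. The groups overlapped in both sexes, and 1 female chow liver stood at 2.01 times the mean of the other 2 in its group. The log2 fold change for statin was −0.60 ± 0.366 (SE) in females, with an adjusted p of 0.660 by edgeR and a 95% interval from −1.40 to 0.19, and without that liver it was −0.17. In males it was 0.05 ± 0.363, with an interval from −0.74 to 0.84.

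*Clock* (chr5:76209868-76304792, minus strand), which encodes the partner of BMAL1 and has a shallow rhythm in liver, was the most even of the night-peaking genes. Female chow livers had 36.8, 31.1 and 26.0 CPM and female statin livers 30.9, 26.2 and 37.6 CPM. Male chow livers had 41.5, 32.6 and 33.1 CPM and male statin livers 36.9, 37.3 and 29.3 CPM. The statin difference was 0.01 ± 0.174 on the log2 scale in females (95% interval −0.36 to 0.39) and −0.05 ± 0.174 in males (−0.43 to 0.33). *Npas2* (chr1:39193731-39363236, plus strand), the alternative partner of BMAL1, had 5 to 22 reads in female chow livers, 6 to 16 in female statin livers, 4 to 8 in male chow livers and 3 to 4 in male statin livers. Without the filter on low counts its adjusted p by edgeR was 0.874 for statin in females and 1.00 in males.

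*Cry1* (chr10:85131700-85185064, minus strand), a repressor whose transcript peaks late, had 5.04, 5.15 and 8.0 CPM in female chow livers and 5.78, 7.55 and 14.3 CPM in female statin livers. In males it had 8.81, 8.12 and 10.3 CPM on chow and 10.01, 8.05 and 7.50 CPM on statin. The highest of all 12 livers was the female statin liver numbered 3, at 2.14 times the mean of the other 2 livers of its group, and the groups overlapped. For statin in females the log2 fold change was 0.60 ± 0.297 (adjusted p = 0.529 by edgeR, 95% interval −0.04 to 1.25), and without that liver it was 0.16 ± 0.231. In males it was −0.09 ± 0.294, with an interval from −0.73 to 0.55.

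*Per1* (chr11:69095217-69109960, plus strand), a PER repressor that is also induced by glucocorticoids, varied 2.06-fold within the female chow group and 1.97-fold within the male chow group. It had 32.4, 35.3 and 66.8 CPM in female chow livers and 34.9, 44.99 and 54.5 CPM in female statin livers. Male chow livers had 28.6, 27.2 and 53.7 CPM and male statin livers 53.5, 51.6 and 44.6 CPM. In each chow group 1 liver, numbered 3, stood apart, at 1.97 times the mean of the other 2 in females and 1.92 times in males. The female means of 44.9 ± 19.1 CPM on chow and 44.8 ± 9.83 CPM on statin (SD, n = 3) did not differ beyond their spread, and the fitted change of −0.00 ± 0.305 took either sign under other processing. The male change of 0.45 ± 0.306 had an adjusted p of 1.00 by edgeR and a 95% interval from −0.21 to 1.12. It ranged from 0.28 to 0.84 with 1 liver left out, and was highest without the male chow liver numbered 3 and lowest without that numbered 2.

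*Per2* (chr1:91415982-91459324, minus strand), the second gene of the PER family, had 25.6, 27.9 and 36.1 CPM in female chow livers and 26.2, 40.9 and 64.7 CPM in female statin livers. Male chow livers had 34.8, 40.2 and 51.9 CPM and male statin livers 32.1, 33.9 and 43.0 CPM. The female statin livers spanned the widest range of the 4 groups, from a value close to the lowest female chow liver upward, and the groups overlapped. The female change was 0.56 ± 0.276 (adjusted p = 0.531 by edgeR, 95% interval −0.04 to 1.16), and it was 0.19 ± 0.238 without the female statin liver numbered 3. The male change was −0.22 ± 0.275, and ranged from −0.36 without the male statin liver numbered 3 to −0.05 without the male chow liver numbered 3. The interaction of 0.78 ± 0.390 had the smallest adjusted p of the 9 genes for that comparison, 0.693, and was 0.39 without the female statin liver numbered 3.

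*Per3* (chr4:151003652-151044665, minus strand), the third gene of the PER family, had 32.9, 51.1 and 67.0 CPM in female chow livers and 49.7, 50.4 and 69.4 CPM in female statin livers. Male chow livers had 47.6, 54.0 and 69.4 CPM and male statin livers 38.5, 50.4 and 56.1 CPM. The spread within groups covered the differences between groups, with a log2 change of 0.17 ± 0.248 in females and −0.24 ± 0.248 in males. The male value ranged from −0.36 without the male statin liver numbered 3 to −0.07 without the male chow liver numbered 3. *Per3* overlaps *Camta1* on the same strand, so reads in the shared part may have been assigned to neither gene or to either.

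*Nr1d1* (chr11:98767932-98775333, minus strand) encodes REV-ERBα, the repressor of *Arntl*. Female chow livers had 123.9, 102.4 and 94.7 CPM and female statin livers 88.6, 86.9 and 43.6 CPM, so every statin liver lay below every chow liver. Male chow livers had 123.4, 95.4 and 108.2 CPM and male statin livers 130.9, 98.7 and 75.9 CPM, which overlapped. The female difference of −0.55 ± 0.260 on the log2 scale did not pass the test (adjusted p = 0.50 by edgeR, 95% interval −1.12 to 0.02). *Nr1d1* was the only clock gene of the 9 whose groups did not overlap in females, against 12% of all genes tested, and in males 0 of 9 did not overlap, against 7.95%. Without the female statin liver numbered 3 the difference was −0.27 ± 0.211. *Nr1d1* overlaps *Thra* on the other strand, and the strand setting of the read counting is not given in the sources used here.

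*Dbp* (chr7:45705088-45710203, plus strand), an activator on D-boxes and the standard output gene of the clock, had 120.7, 151.8 and 172.1 CPM in female chow livers and 170.7, 190.5 and 113.4 CPM in female statin livers. Male chow livers lay close together at 191.4, 197.5 and 202.1 CPM, and male statin livers had 196.0, 172.4 and 186.4 CPM. The statin change was 0.09 ± 0.184 in females (95% interval −0.31 to 0.49) and −0.09 ± 0.184 in males (−0.49 to 0.31). *Dbp* overlaps *Sphk2* on the other strand.

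*Ciart* (chr3:95878503-95882251, minus strand), which encodes CHRONO, a repressor that binds BMAL1, had 10.3, 8.68 and 11.97 CPM in female chow livers and 14.2, 9.38 and 10.5 CPM in female statin livers. Male chow livers had 10.2, 10.8 and 15.6 CPM and male statin livers 14.6, 25.2 and 20.5 CPM. The male statin livers were highest on average, at 20.1 ± 5.27 CPM against 12.2 ± 2.96 CPM in male chow (SD, n = 3), and 1 chow liver, at 15.6 CPM, lay above 1 statin liver, at 14.6 CPM. The male change of 0.72 ± 0.234 had an unadjusted p of 0.00919 and an adjusted p of 1.00 by edgeR, with a 95% interval from 0.22 to 1.23. The female change was 0.14 ± 0.235, and the difference between the sexes of −0.59 ± 0.331 had an adjusted p of 0.774 by edgeR. *Ciart* overlaps *C920021L13Rik* on the other strand.

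**Figure D2:**
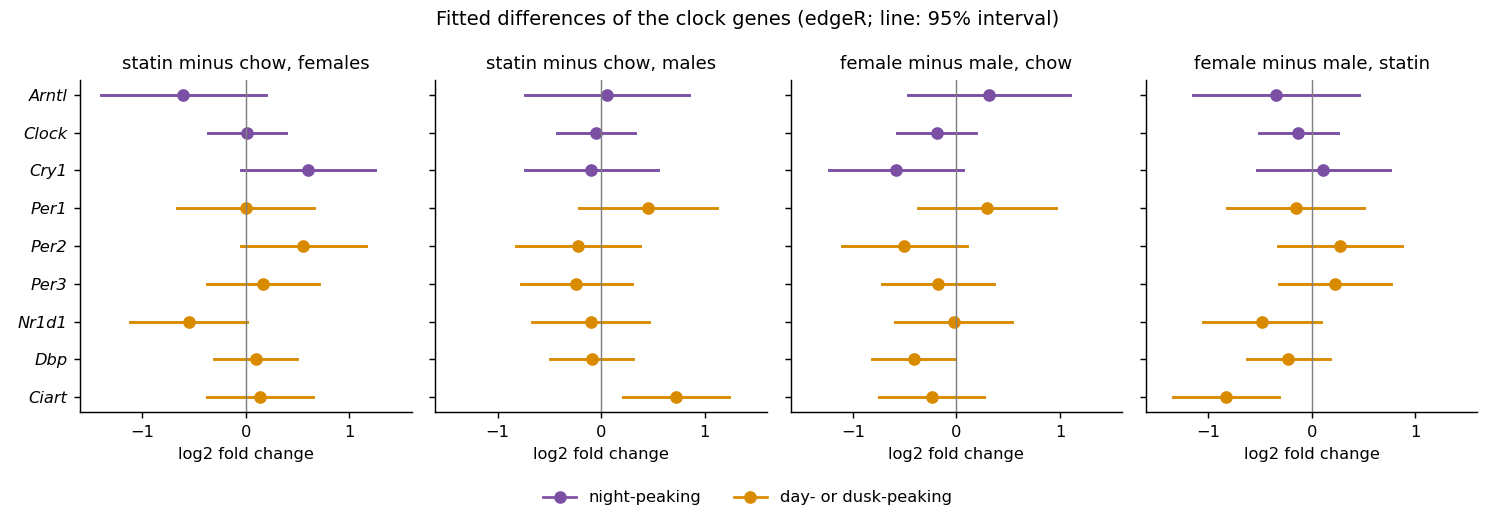
Log2 fold changes of the 9 tested clock genes with their 95% intervals (edgeR), for statin minus chow in females and in males and for female minus male on chow and on statin; colours give the night-peaking and the day- or dusk-peaking genes. In the 2 statin panels the genes of each colour fall on both sides of 0, and the interval of *Ciart* in males, 0.22 to 1.23, is the one of those panels that leaves out 0.

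Taken as a night-peaking and a day-peaking set, the genes did not separate, though opposite changes within a set cancel in a median. The 3 tested night-peaking genes had a median log2 change for statin of 0.01 in females, with *Arntl* at −0.60 and *Cry1* at 0.60, and of −0.05 in males. The 6 day-peaking genes had a median of 0.12 in females, with *Per2* at 0.56 and *Nr1d1* at −0.55, and of −0.10 in males. Over all 9 genes 6 values were positive in females and 3 in males, with medians of 0.09 and −0.09, while the medians over all genes tested were 0.01 and 0.00. With edgeR and TMM scaling, genes of the same phase thus lay on both sides of 0 in each sex. The positive values nearest 0, *Clock* in females and *Arntl* in males, turned negative under scaling by library size alone and under limma, respectively. With limma all tested night-peaking genes were therefore negative in males (*Arntl* −0.003, *Clock* −0.052 and *Cry1* −0.097).

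Liver by liver, the mean log2 level of the 6 day-peaking genes minus that of the 4 night-peaking genes was taken, each gene centred on its mean over the 12 livers with 0.5 CPM added. The female chow livers had −0.50, −0.13 and 0.29, and the female statin livers −0.02, 0.17 and −0.30. The male chow livers had −0.25, −0.03 and 0.30, and the male statin livers −0.07, 0.18 and 0.36. Both signs occurred in all 4 groups, and all groups overlapped. In 3 of the 4 groups the difference was lowest in the liver numbered 1 and highest in that numbered 3, and among female statin livers it was lowest in the liver numbered 3. The group values were −0.11 ± 0.40 for female chow, −0.05 ± 0.24 for female statin, 0.01 ± 0.28 for male chow and 0.16 ± 0.22 for male statin (SD, n = 3), so the spread within each group exceeded the differences between statin and chow. This contrast of gene groups was described and not tested. Opposite changes within a gene group cancel in the contrast, and its night term includes *Npas2*, at 3 to 22 reads per liver.

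**Figure D3:**
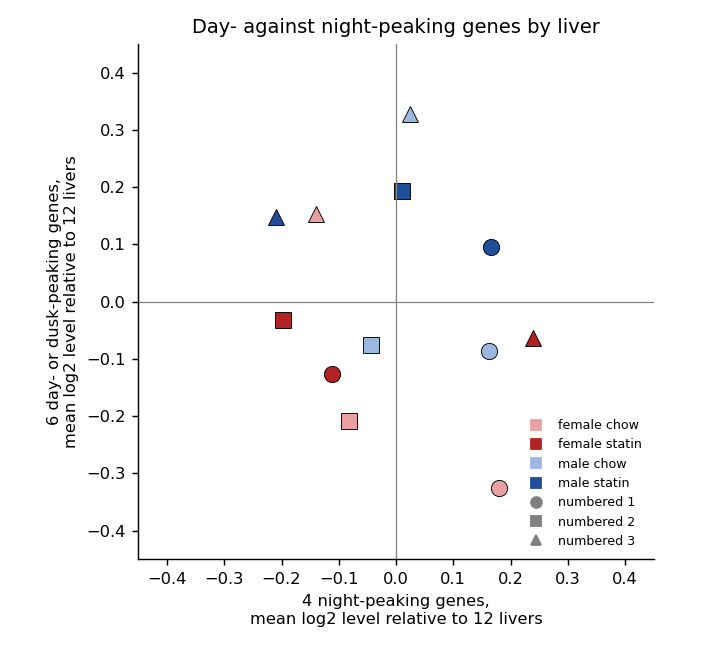
Mean log2 level of the 6 day- or dusk-peaking genes (vertical) against that of the 4 night-peaking genes (horizontal) in each of the 12 livers, relative to the average over the 12 livers; colours give the groups and symbols the liver number. Livers of all 4 groups are mixed, and the female chow liver numbered 1 has the lowest day-peaking value, −0.33, with a night-peaking value of 0.18.

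The female statin liver numbered 3 held several of the extreme values described above. Compared with the mean of the other 2 livers of its group, *Nr1d1* stood at 0.496 times and *Dbp* at 0.628 times, and *Cry1* at 2.14 times and *Per2* at 1.93 times. *Arntl* stood at 1.41 times and *Per3* at 1.39 times. *Per1* stood at 1.37 times, *Clock* at 1.31 times, *Ciart* at 0.891 times and *Npas2* at 0.559 times. The tested night-peaking genes *Cry1*, *Arntl* and *Clock* were thus all above the other livers. *Npas2*, which did not pass the filter, was below them on 6 reads, against 16 and 8 in the other livers. Among the genes taken as day- or dusk-peaking, *Per1*, *Per2* and *Per3* were above and *Nr1d1*, *Dbp* and *Ciart* below. The same liver had a mean log2 level, each gene centred on its mean over the 12 livers, of −1.53 for 9 lipogenic genes that are high after feeding, against 0.66 and 0.66 in the other livers of its group, and of 0.88 against 0.40 and 0.24 for 9 genes that are high in fasting. The part of this in the clock gene values was not tested.

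The second question was whether the sexes differed. On chow 0 of 9 clock genes were called by edgeR against 10.4% of all genes tested, and DESeq2 and limma called 0. An unadjusted p under 0.05 by edgeR was reached by 1 of the 9 (*Dbp*), against 24.9% of all genes tested. *Dbp* was lower in females, with 148 ± 25.9 CPM against 197 ± 5.35 CPM in males (SD, n = 3), and the livers did not overlap. Its log2 difference of −0.41 ± 0.184 had an adjusted p of 0.189 by edgeR. *Cry1* was the other gene without overlap, by a narrow margin (8.0 CPM in the highest female and 8.12 CPM in the lowest male liver), at 6.06 ± 1.68 CPM in females and 9.09 ± 1.13 CPM in males, with a difference of −0.58 ± 0.297 and an adjusted p of 0.250 by edgeR. These 2 of 9 genes compare with 37.7% of all genes tested whose female and male chow livers did not overlap.

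On statin 0 of 9 clock genes were called by edgeR against 6.28% of all genes tested. By edgeR 1 of the 9 had an unadjusted p under 0.05, against 19.4% of all genes tested. DESeq2 called 1 of the 9, against 1284 of all 11968 genes, and limma called 0, against 750. The gene in both cases was *Ciart*. Its 3 female statin livers, at 9.38 to 14.2 CPM, all lay below the 3 male statin livers, at 14.6 to 25.2 CPM, and 1 of 9 clock genes without overlap compares with 19.6% of all genes tested. The log2 difference of −0.83 ± 0.234 had an adjusted p of 0.0586 by edgeR and a 95% interval from −1.34 to −0.32. It passed with DESeq2 (adjusted p = 0.0115), with scaling by library size alone (0.0482, edgeR) and without the filter on low counts (0.00944, edgeR), so the call depended on the processing. Leaving out the female statin liver numbered 1 or the male statin liver numbered 1 also gave a call by edgeR (adjusted p = 0.0356 and 0.0289). The unfiltered fit gave *Npas2* an adjusted p of 0.333 between the sexes on chow and 0.445 on statin by edgeR.

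Of the other genes of the clock loop 9 are described here, of which 8 were tested and *Arntl2*, a paralog of *Arntl*, was not. For statin 0 of 8 were called by edgeR in either sex or for the interaction, against 0.100% of all genes tested in females and 0% in males and in the interaction, and DESeq2 and limma called 0 as well. An unadjusted p under 0.05 was reached by 2 genes in females and by 2 in the interaction, and by 0 in males, against 10.5%, 8.01% and 1.96% of all genes tested. The 2 female groups did not overlap for 12% of all genes tested. *Hlf*, a D-box activator related to *Dbp*, had 63.7, 57.0 and 66.5 CPM in female chow livers and 76.0, 103.9 and 82.8 CPM in female statin livers, without overlap. Its change of 0.49 ± 0.141 had an adjusted p of 0.218 by edgeR, the male change was −0.19 ± 0.141, and the interaction of 0.68 ± 0.199 had an adjusted p of 0.353. *Bhlhe40*, an E-box repressor, had 208.4, 219.5 and 226.7 CPM in female chow livers and 150.4, 188.5 and 180.5 CPM in female statin livers, also without overlap, with a change of −0.33 ± 0.138 (adjusted p = 0.412 by edgeR).

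Between the sexes on chow 3 of these 8 genes were called by edgeR, against 10.4% of all genes tested, and 5 of the 8 did not overlap, against 37.7%. *Bhlhe40* was higher in females, by 0.81 ± 0.139 on the log2 scale (adjusted p = 0.00340), with male chow livers at 108.8, 120.6 and 144.3 CPM. Its relative *Bhlhe41*, also a repressor on E-boxes, was lower in females, at 1.97, 2.18 and 3.14 CPM against 8.65, 10.3 and 5.48 CPM in males, a difference of −1.75 ± 0.407 (adjusted p = 0.0180, edgeR). *Hlf* was lower in females by −0.56 ± 0.141 (adjusted p = 0.0266, edgeR), with male chow livers at 83.0, 91.1 and 101.1 CPM. On statin *Bhlhe41* was again lower in females, at 4.09, 2.87 and 0.954 CPM against 8.53, 9.13 and 7.11 CPM, by −1.64 ± 0.404 (adjusted p = 0.0316, edgeR), and the other 7 did not pass, so that 1 of 8 was called against 6.28% of all genes tested. *Bhlhe40* had 129.8, 153.7 and 145.4 CPM in male statin livers, with a difference of 0.28 ± 0.138 on statin (adjusted p = 0.308, edgeR), and the interaction of −0.53 ± 0.195 did not pass (adjusted p = 0.474). The calls of *Hlf* and *Bhlhe41* were lost when some single livers were left out. The sex differences of *Bhlhe40* and *Bhlhe41* on chow had opposite signs, although both encode E-box repressors. Summed levels of 5 Kupffer cell markers were 401 to 491 CPM in female and 210 to 319 CPM in male chow livers, with 2 of the 5 called higher in females, and on statin 352 to 617 CPM and 210 to 262 CPM, with 3 of the 5 called. For 5 stellate cell markers the chow sums were 274 to 332 CPM in females and 178 to 193 CPM in males, with 2 called higher in females, and for 5 endothelial markers 225 to 245 CPM and 147 to 207 CPM, with 1 called. No marker of these lists was at 0 in any liver. Of the 9 feeding-high genes 7 were called higher in females on chow. These counts stand beside 10.4% of all genes called between the sexes on chow and 6.28% on statin. The part of cell makeup or feeding state in the sex differences was not tested.

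**Figure D4:**
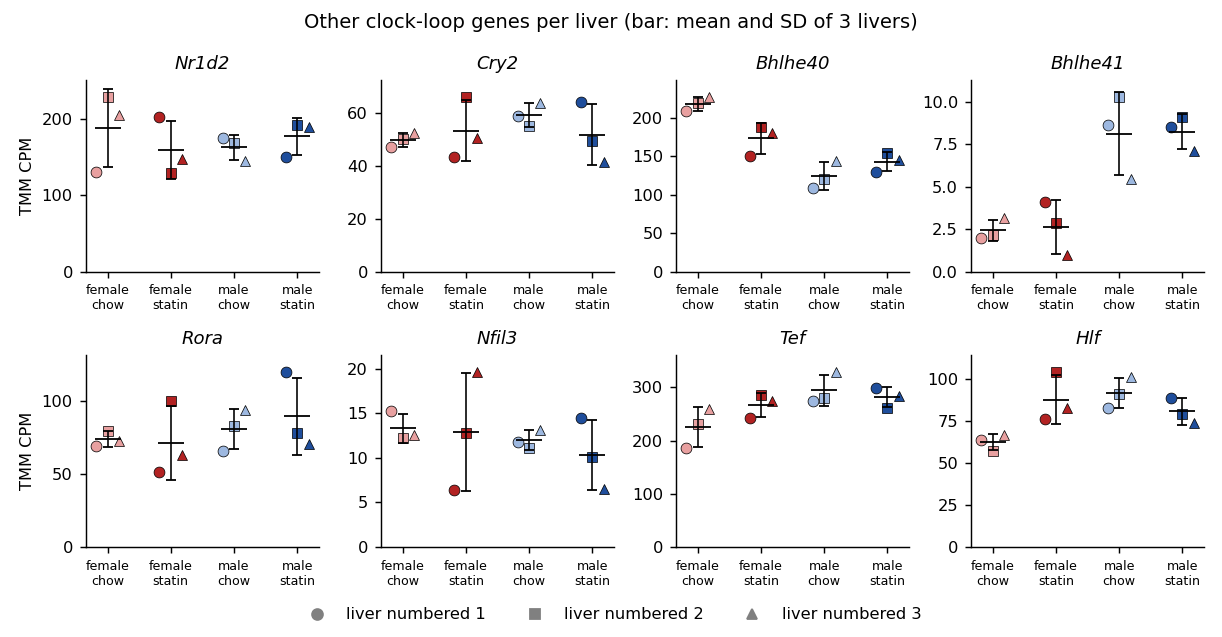
TMM-normalized CPM of the 8 other tested clock-loop genes in each liver, by group, on linear axes from 0; symbols give the liver number and bars the mean and SD of 3 livers. Female and male chow livers do not overlap for 5 of the 8, *Bhlhe40* (208.4 to 226.7 against 108.8 to 144.3 CPM), *Bhlhe41* (1.97 to 3.14 against 5.48 to 10.3 CPM), *Hlf*, *Tef* and *Cry2*.

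The remaining members of that list showed no call in any comparison. *Nr1d2*, which encodes REV-ERBβ, lay between 129.5 and 228.9 CPM over the 12 livers, and *Tef*, the third D-box activator, between 186.3 and 328.3 CPM. *Tef* was lower in females on chow without overlap (−0.38 ± 0.146, adjusted p = 0.119 by edgeR). *Cry2*, the paralog of *Cry1*, lay between 41.5 and 65.8 CPM, and its female chow livers (47.1 to 52.3 CPM) lay below its male chow livers (54.8 to 63.6 CPM). *Rora*, which encodes an activator that opposes REV-ERBα, lay between 51.1 and 119.3 CPM, and the D-box repressor *Nfil3* between 6.37 and 19.6 CPM.

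Within groups the clock genes varied more than most genes. The SD of log2 levels among the 3 livers of a group, pooled over groups, had a median of 0.349 over the 9 tested clock genes and 0.223 over all genes tested, and all 9 lay above that median. *Per1* had the widest spread, 0.428, and *Clock* the narrowest, 0.224. The spread of the 4 group means had a median of 0.213 over the clock genes against 0.146 over all genes tested.

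Part of this spread followed the numbers that the labels give to the livers. *Per2* and *Per3* were highest in the liver numbered 3 and lowest in the liver numbered 1 in all 4 groups. *Nr1d1* was highest in the liver numbered 1 in all 4 groups and lowest in the liver numbered 3 in 3 of them. *Arntl* was highest in the liver numbered 1 in 3 groups and lowest in the liver numbered 3 in 3 groups, and *Cry1* and *Per1* were highest in the liver numbered 3 in 3 groups. Over all genes tested 32 of 11968 (0.267%) had 1 order of the numbers in all 4 groups, against 2 of the 9 clock genes. The same number was highest in all 4 groups for 2.03% of all genes and 3 of the 9, and lowest for 1.70% and 2 of the 9. What the numbers stand for is not given in the sources used here, the livers are from different mice, and this pattern was noticed in the values and not tested.

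**Figure D5:**
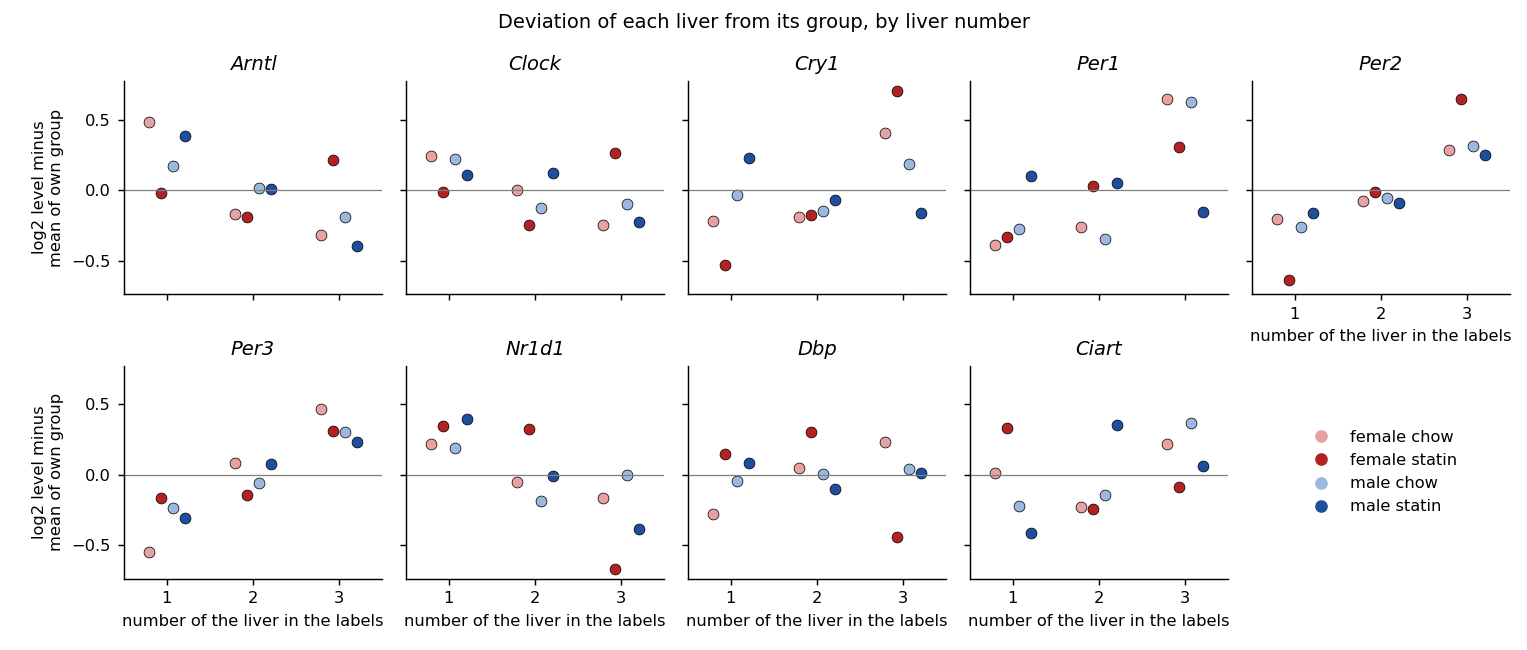
Log2 level of each liver minus the mean of its own group (vertical, 0.5 CPM added) for the 9 tested clock genes, by the number of the liver in the labels (horizontal); colours give the 4 groups. *Per2* and *Per3* lie below 0 at number 1 and above 0 at number 3 in all 4 groups, and *Nr1d1* lies above 0 at number 1 in all 4.

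For *Arntl* and *Dbp*, activators on E-boxes and D-boxes, the genes with the most similar levels over the 12 livers were listed by Pearson correlation of log2 levels, as a description in which group differences and library are shared. For *Arntl* these were *Eif2b4* (r = 0.849, n = 12 livers), *Ccdc186* (0.834), *Hip1r* (0.822), *Wdr3* (0.813) and *Cse1l* (0.812), and the most opposite were *Atp23* (−0.783) and *Pik3c2b* (−0.763). For *Dbp* they were *Cnppd1* (0.905), *Abcg8* (0.901), *Bmf* (0.898), *Eepd1* (0.886) and *Gpr146* (0.880), and the most opposite were *Neu3* (−0.962) and *Smyd1* (−0.934). No clock-loop gene was among the 5 most similar or the 5 most opposite genes of either, other clock genes of the set of 10 having been left out of the search.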

How the data were processed

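RNA of 12 livers, 3 per group, was sequenced from strand-specific libraries of selected poly(A) RNA. The submitters' processing notes name STAR 2.4.1a, HTSeq, edgeR 3.28.1 and GRCm38. The authors deposited CPM values for 48526 genes, made by scaling read counts to library totals before any filter. They also deposited a table of 11968 genes described as TMM-normalized, whose values were whole read counts. All recovered reads (100% whole within 0.01 reads, or 0.01 per 1000 reads above that) equalled these counts, so they were used as raw counts. Its genes were those exceeding 1 CPM in 6 or more livers. The strand setting of the counting is not given in the sources used here. All value columns belonged to the 12 samples.

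The counts were fitted with edgeR 4.0.16 (R 4.3.3, quasi-likelihood, TMM, 1 fit with 4 groups and no covariate, common dispersion 0.0380, prior degrees of freedom 4.14). Tests were two-sided, with Benjamini-Hochberg adjustment over all 11968 genes. SEs were derived from each log2 fold change and its F statistic, and 95% intervals use 12.1 degrees of freedom. *Npas2* came from a fit of 26304 genes without a filter. Levels are TMM-normalized CPM, and 3 reads correspond to 0.0497 to 0.0652 CPM. Alternatives were DESeq2 1.42.0, limma 3.58.1, other scalings, filters and pseudocounts, robust moderation, each sex alone, a replicate block and leaving out each liver. The fits were tested on simulated data with known changes. Python 3.11.15, pandas 2.3.3 and matplotlib 3.10.9 were also used. Positions and exon lengths are from GENCODE vM21 (GRCm38), and symbols matched 99.8% of tested genes.

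The clock genes and the other lists were chosen with earlier results of these data known. All 10 clock genes and 9 other clock-loop genes are named. 1 further clock-loop gene is not reported here and enters no count of these genes. Of other lists, genes past an adjusted p of 0.05, or past an unadjusted p of 0.05 without overlap of the groups, may be named, at most 3 a list. The labels number the livers of a group and give no litter or day, and p-values measure the spread between these livers.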

Additional observations from a re-analysis of the deposited data

How the results depend on the processing

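The 12 calls for statin in females became 270 with DESeq2, 148 without a filter, 0 with each sex fitted alone, and 0 to 75 when 1 liver was left out (62 and 75 without female statin livers 1 and 2, 16 without female chow liver 3, and at most 2 without any other). Males had 4 calls with DESeq2, and the interaction 122 with DESeq2, 103 without a filter and 0 to 14 with 1 liver left out (14 without female statin liver 2). Sex on chow gave 1946 calls with DESeq2 and 635 to 1586 with 1 liver left out (635 to 795 without a chow liver other than female 3). Sex on statin gave 1284 with DESeq2, 500 above 5 CPM, and 378 to 743 with 1 liver left out (378 and 456 without male statin livers 2 and 3). Scaling by library size alone changed the higher and lower calls in females from 713 and 537 to 565 and 653 on chow, and from 524 and 227 to 356 and 327 on statin. For sex on statin, 1 clock gene (*Ciart*) was called with DESeq2, 1 with library size alone, 1 without a filter, and 0 to 1 with 1 liver left out; in the other comparisons 0 were called under every alternative run. The call of *Hlf* on chow was lost without female chow liver 1 or 2 or male chow liver 2 or 3 (adjusted p up to 0.109, edgeR), that of *Bhlhe41* on chow without female chow liver 1 or 2 or male chow liver 1 or 2 (0.0568 to 0.0777), and on statin without female statin liver 2 or any male statin liver (0.0580 to 0.0994). The day minus night differences kept both signs in all 4 groups under every alternative run, but male chow liver 2 was 0.046 with a pseudocount of 0.1, and without *Per2* female statin liver 1 was 0.054 and female statin liver 3 −0.476. The causes were not tested.

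The liver numbers did not pair the samples: 5 of 18 same-numbered pairs correlated above 0.1 over 7641 genes (mean −0.108, against 0.0576 for different numbers), and 2 livers were closest to their own number. With a replicate block 5 genes were called for statin in females, 0 clock genes were called in any comparison (unadjusted p for statin in females 0.0132 for *Per2* and 0.0146 for *Nr1d1*, in males 0.0438 for *Per1* and 0.0133 for *Ciart*, in the interaction 0.0127 for *Per2*, between sexes on chow 0.0128 for *Per2* and 0.0417 for *Cry1*, and on statin 0.0334 for *Nr1d1* and 0.00803 for *Ciart*, edgeR), and *Hlf* on chow was lost (adjusted p = 0.0616, edgeR). Values near 0 changed sign under the block for *Per1* (0.045) and *Bhlhe41* (−0.016) in females and *Bhlhe41* in the interaction (−0.068). They also did so with limma for *Per1* (0.053) and *Bhlhe41* (−0.083) in females, *Arntl* in males (−0.003) and *Bhlhe41* in the interaction (−0.144), above 5 CPM for *Per1* in females (0.001), and by library size for *Clock* in females (−0.024) and *Cry2* between sexes on statin (−0.05).

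Leaving out 1 liver moved these log2 values across 0, none of them called. For statin in females they were *Per1* (−0.182 to 0.409), *Per3* (−0.058 to 0.433), *Clock* (−0.116 to 0.153), *Bhlhe41* (−0.319 to 0.536), *Rora* (−0.375 to 0.149), *Ciart* (−0.049 to 0.264), *Nfil3* (−0.459 to 0.282), *Dbp* (−0.060 to 0.302) and *Cry2* (−0.091 to 0.231). In males they were *Cry1* (−0.225 to 0.009), *Nr1d1* (−0.320 to 0.075), *Tef* (−0.112 to 0.020), *Clock* (−0.114 to 0.069), *Bhlhe41* (−0.197 to 0.225), *Rora* (−0.121 to 0.293), *Arntl* (−0.272 to 0.304) and *Nfil3* (−0.529 to 0.031). In the interaction they were *Clock* (−0.069 to 0.199), *Bhlhe41* (−0.346 to 0.509), *Rora* (−0.527 to 0.070) and *Nfil3* (−0.249 to 0.492). Between sexes on chow they were *Nr1d1* (−0.155 to 0.072), *Per1* (−0.111 to 0.685), *Per3* (−0.446 to 0.045) and *Arntl* (−0.118 to 0.509), and on statin *Hlf* (−0.038 to 0.206), *Cry1* (−0.349 to 0.346), *Per2* (−0.114 to 0.524), *Nfil3* (−0.103 to 0.638) and *Cry2* (−0.154 to 0.229).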

Other observations

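Genes around the clock loop were read from further lists, chosen with earlier results of these data known. Of 18 kinases, ligases and other modifiers of clock proteins, 0 were called by edgeR in any of the 5 comparisons (limma 0, DESeq2 1 between the sexes on statin), and at most 2 had an unadjusted p under 0.05 in any of them. Of all genes tested, edgeR called 10.4% between the sexes on chow and 6.28% on statin. With an unadjusted p under 0.05 and no overlap, *Fbxl21*, a ligase subunit for CRY proteins, had 2.20 ± 0.294 CPM in female statin and 1.38 ± 0.204 CPM in female chow livers (SD, n = 3), with an adjusted p of 0.315 by edgeR.

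Of 10 liver outputs of the clock, 0 were called for statin by edgeR or limma in either sex (DESeq2 called 2 in females and 0 in males) and 5 between the sexes on chow, against 10.4% of all genes tested, of which 2 were higher and 3 lower in females. Without the filter on low counts edgeR called 3 in females and 0 in males for statin. *Lpin1*, a phosphatidate phosphatase, had 493 ± 236 CPM in female and 77.9 ± 40.7 CPM in male chow livers (adjusted p = 0.00813, edgeR). *Cyp7a1*, the rate-limiting enzyme of bile acid synthesis, had 55.8 ± 10.3 CPM in female and 208 ± 43.1 CPM in male chow livers (adjusted p = 0.0250, edgeR), and *Wee1*, a cell cycle kinase, 15.9 ± 2.76 and 26.6 ± 3.38 CPM (adjusted p = 0.0265, edgeR). The median log2 change of these 10 genes for statin was 0.61 in females, with 6 higher and 1 lower at an unadjusted p under 0.05, and 0.01 in males, with 1 higher. The medians over all genes tested were 0.01 and 0.00. For statin 0.100% of all genes tested were called by edgeR in females and 0% in males, and 10.5% and 1.96% had an unadjusted p under 0.05.

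*Cirbp*, which encodes a cold-inducible RNA-binding protein, had 10.6 ± 2.08 CPM in female and 21.5 ± 3.65 CPM in male chow livers (adjusted p = 0.00425, edgeR). It was the only edgeR call of 9 temperature-responsive genes between the sexes on chow, against 10.4% of all genes tested (DESeq2 called 2). Of 8 glucocorticoid targets 0 were called for statin in either sex by edgeR or limma (DESeq2 called 1 in females), with medians of −0.33 in females and 0.56 in males and 2 genes at an unadjusted p under 0.05 in each, against 10.5% and 1.96% of all genes tested. Of the 9 feeding-high and 9 fasting-high genes 0 were called for statin by edgeR or limma in either sex (DESeq2 called 3 and 2 in females, edgeR without the filter 4 and 1, and both 0 in males), with 6 feeding-high genes lower and 4 fasting-high genes higher in females at an unadjusted p under 0.05, against 10.5% of all genes tested in either direction. The median log2 changes were −1.55 and 0.66 in females and 0.50 and −0.10 in males. The female statin liver numbered 3 stood apart in mean centred log2 level for both lists. It had −1.53 for feeding-high genes, against 0.66 and 0.66 in the other livers of its group. For fasting-high genes it had 0.88, against 0.40 and 0.24.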
